A study of Mus musculus with 6 samples.

Results

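Genes of sterol and fatty acid synthesis, with the factors that sense sterols and the pumps that export them, were compared between naive CD4 T cells that lacked or carried Ly-6C, a lipid-anchored surface protein of the Ly6 family. The set was a list of 33 genes, and 30 of them were measured among the 19938 genes of the array that had a single gene symbol. Acat2, Nr1h2 and Soat1 were not analysed here. A gene with several probe sets is represented by the brightest on average. Mice of the C57BL/6 Foxp3-GFP strain, 6 weeks old, gave peripheral lymph nodes; GFP in this strain marks cells that express Foxp3, the master factor of regulatory T cells. The gate of each population was CD4+, CD8-, TCRβ+, CD44lo, CD25- and Foxp3-, so all 6 samples share the reporter and the gate and differ in the sort for Ly-6C. Each population was hybridised on 3 arrays, labelled biological replicates, and the labels do not tell which mice gave which cells, so p-values measure the spread between these samples. The comparison asks whether transcripts of lipid synthesis differ between the populations. Every difference below is Ly-6C- minus Ly-6C+ on the log2 scale of the deposited values.

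Lymphocytes build cholesterol from acetyl-CoA through mevalonate, farnesyl pyrophosphate, squalene and lanosterol. When sterol in the endoplasmic reticulum falls, SCAP escorts the SREBP factors to the Golgi, where they are cut and go on to switch on genes of this route, while INSIG proteins hold SCAP back when sterol is ample. Oxysterols that accumulate act through the LXR receptors, which induce the cholesterol pumps ABCA1 and ABCG1. A resting naive T cell needs little new membrane, and activated T cells are known to raise sterol and fatty acid synthesis before they divide.

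Transcripts of the sort marker followed the labels, and the arrays differed little as a whole. The brighter probe set listed under both Ly6c1 and Ly6c2 measured 8.49 ± 0.24 (SD, n = 3) in Ly-6C- cells and 11.66 ± 0.067 (SD, n = 3) in Ly-6C+ cells. Array medians lay between 6.25 and 6.29. Ly-6C- replicate 2 stood apart: it correlated with the other arrays at r from 0.993 to 0.995 across genes, where the lowest r among the other 5 arrays was 0.996. Of 19938 genes, 29 had a limma adjusted p under 0.05. That count was 5 without Ly-6C- replicate 1, 47 without Ly-6C- replicate 2, and 8, 6 and 8 without Ly-6C+ replicate 1, 2 and 3.

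None of the 30 lipid genes passed limma's test at an adjusted p of 0.05, which 0.145% of all genes did. The smallest p was that of Cyp51, lanosterol demethylase, followed by Hmgcs1, the cytosolic HMG-CoA synthase, the mevalonate enzyme Pmvk and the sterol sensor Insig1, all with higher means in Ly-6C- cells. At an unadjusted limma p under 0.05 these 4 genes and no others of the list qualified by the probe sets used. They were 13.3% of members, against 6.71% of all genes. All 4 had higher means in Ly-6C- cells, as 3.44% of all genes did at that p, and 0 had lower means, as 3.27% of all genes did. The arrays of the populations did not overlap for 7 members, or 23.3%, as for 12.6% of all genes. Of these 7, Cyp51, Hmgcs1, Insig1, Srebf2, Scap and Abca1 had higher values in Ly-6C- cells, as 6.12% of all genes did, and Hsd17b7 had lower values, as 6.5% of all genes did. The median difference was 0.053 over the members and -0.0048 over all genes. Above 0 lay 18 members, or 60%, against 47.8% of all genes, and 12 members lay below. The member median was 0.015 without Ly-6C- replicate 1 and 0.022 without Ly-6C+ replicate 1. No test was made of the list as a whole, and its members were chosen with earlier results of these data known.

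Cyp51 encodes the P450 enzyme that removes a methyl group from lanosterol, the first sterol of the route. Its level was 7.93, 7.73 and 7.85 in Ly-6C- replicates 1, 2 and 3, and 7.55, 7.37 and 7.30 in Ly-6C+ replicates 1, 2 and 3. Every Ly-6C- array lay above every Ly-6C+ array, and the lowest Ly-6C- array was the one that stood apart. The difference was 0.43 (standard error 0.086), with a 95% interval from 0.24 to 0.62, or 1.35-fold (limma adjusted p = 0.190 over all genes). The same-numbered arrays differed by 0.38, 0.36 and 0.56. With the replicate number as a block the limma adjusted p was 0.0942, and without Ly-6C- replicate 2 it was 0.0844, so Cyp51 stayed short of the threshold in both fits.

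Hmgcs1 makes HMG-CoA, the substrate of the rate-limiting reductase of the route. It measured 7.87, 7.68 and 7.88 in Ly-6C- replicates 1, 2 and 3 and 7.58, 7.52 and 7.55 in Ly-6C+ replicates 1, 2 and 3. The populations again did not overlap, and the Ly-6C+ arrays lay close together. The difference was 0.26 (standard error 0.075, limma adjusted p = 0.473), and the 95% interval ran from 0.097 to 0.43. Insig1, which retains SCAP in the endoplasmic reticulum and is itself a known SREBP target, measured 9.21, 9.05 and 9.17 in Ly-6C- cells and 8.92, 9.00 and 8.98 in Ly-6C+ cells. Its difference was 0.17 (standard error 0.070, limma adjusted p = 0.693), and the second replicates differed by 0.044.

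**Figure D1:**
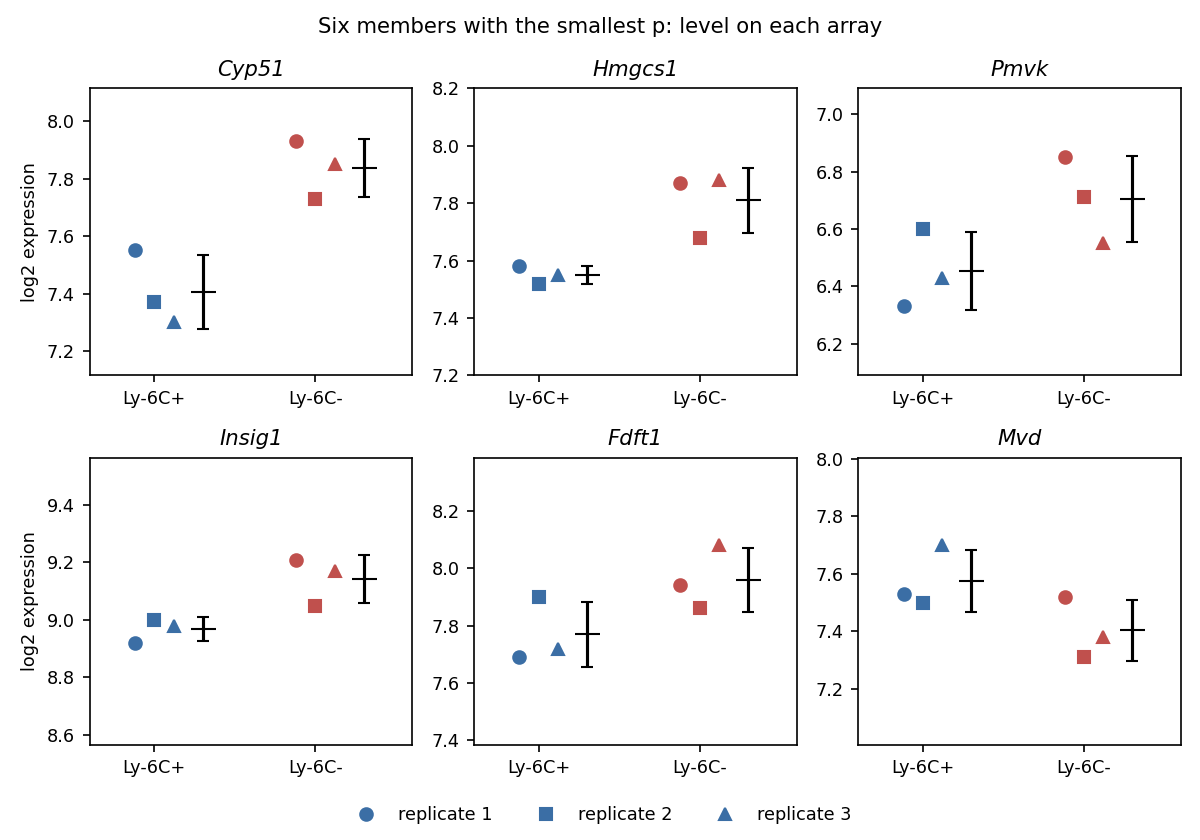
The 6 members with the smallest p, Cyp51, Hmgcs1, Pmvk, Insig1, Fdft1 and Mvd, with log2 expression on the vertical axis of each panel and the population on the horizontal axis. Symbols are single arrays by replicate number, and bars give the mean ± SD of 3 arrays; the arrays of Cyp51, Hmgcs1 and Insig1 do not overlap between populations, whereas those of Pmvk, Fdft1 and Mvd do.

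The promoter windows of 3 of these genes and of Mvd, whose mean was lower in Ly-6C- cells, are shown because they carry letters that SREBP and its partners are known to read. Pmvk, which had a smaller p than Mvd and also holds CCAAT in 1 of its 2 windows, is not shown. Each window runs from 250 bases before to 50 bases after the annotated start, 5′ to 3′ on the gene's strand, from RefSeq on GRCm38.p6. Capitals mark 4 motifs on either strand. They are CCAAT, the box of the factor NF-Y; the E-box CACGTG; and a pair that resembles sterol regulatory elements, ATCACNNCA together with TCACNCCAC, which can match at the same place. Cyp51 lies at chr5:4104648-4104947 on the minus strand, Hmgcs1 at chr13:119690101-119690400 on the plus strand, Insig1 at chr5:28071162-28071461 on the plus strand and Mvd at chr8:122443373-122443672 on the minus strand.
Cyp51: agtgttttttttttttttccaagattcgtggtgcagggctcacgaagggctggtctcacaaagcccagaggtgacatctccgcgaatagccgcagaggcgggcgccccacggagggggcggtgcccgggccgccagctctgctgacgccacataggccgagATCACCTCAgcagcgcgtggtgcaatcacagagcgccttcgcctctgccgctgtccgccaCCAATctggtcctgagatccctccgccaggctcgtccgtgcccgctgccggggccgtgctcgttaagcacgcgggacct
Hmgcs1: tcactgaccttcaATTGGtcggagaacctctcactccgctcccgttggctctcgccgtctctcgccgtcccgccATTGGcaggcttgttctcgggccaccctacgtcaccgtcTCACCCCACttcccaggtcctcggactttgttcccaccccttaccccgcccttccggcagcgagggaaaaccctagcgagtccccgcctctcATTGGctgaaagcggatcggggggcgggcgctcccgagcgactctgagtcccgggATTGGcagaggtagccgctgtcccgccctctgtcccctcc
Insig1: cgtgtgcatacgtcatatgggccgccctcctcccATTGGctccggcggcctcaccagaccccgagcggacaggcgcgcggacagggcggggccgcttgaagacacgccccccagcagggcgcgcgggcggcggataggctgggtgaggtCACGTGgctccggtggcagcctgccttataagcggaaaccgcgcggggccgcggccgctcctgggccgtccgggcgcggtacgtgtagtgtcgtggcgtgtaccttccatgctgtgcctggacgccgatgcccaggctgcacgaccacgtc
Mvd: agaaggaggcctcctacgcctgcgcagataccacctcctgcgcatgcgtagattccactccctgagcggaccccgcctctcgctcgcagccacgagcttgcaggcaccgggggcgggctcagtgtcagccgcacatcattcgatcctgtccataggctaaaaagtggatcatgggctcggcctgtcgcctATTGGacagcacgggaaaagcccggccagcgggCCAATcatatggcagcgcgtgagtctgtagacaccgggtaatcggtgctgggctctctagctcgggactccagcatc
Cyp51 holds ATCACCTCA from position -89 and CCAAT from position -29, counted from the start as 1 with no 0. Hmgcs1 holds TCACCCCAC from position -137 and 4 copies of CCAAT, all on the other strand. Insig1 holds CACGTG from position -101 and CCAAT, and Mvd holds CCAAT on each strand. Whether a motif goes with the direction of a difference was not tested.

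A window was listed for 23 of the 30 measured members, 5 of which have more than 1 start, and a gene counts as holding a motif where any of its windows does. CCAAT was held by 18 of the 23 members, or 78.3%, against 41.1% of the 27025 genes with a window. Among the enzymes from Hmgcs1 to Dhcr7 it was held by 13 of 13. The GC box GGGCGG, known to be read by Sp1, was held by 18 members, or 78.3%, against 38.2% of genes. CACGTG was held by 6 members, or 26.1%, against 8.09% of genes, namely Abca1, Dhcr7, Hsd17b7, Insig1, Sc5d and Scap. ATCACNNCA was held by Cyp51, Msmo1 and Srebf2, or 13.0% against 3.19% of genes, and TCACNCCAC by Hmgcs1 alone of the members, or 4.35% against 1.44% of genes. The 27025 genes were not limited to those measured or expressed in these cells, and the shares were not tested. These are matches of letters, chosen with the windows in view, and no binding was measured.

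In the mevalonate arm, 3 of 6 measured enzymes had higher and 3 lower means in Ly-6C- cells, with a median of 0.046. Pmvk, phosphomevalonate kinase, measured 6.85, 6.71 and 6.55 in Ly-6C- replicates 1, 2 and 3 and 6.33, 6.60 and 6.43 in Ly-6C+ replicates 1, 2 and 3. The lowest Ly-6C- array lay under the highest Ly-6C+ array, and the first pair of replicates alone differed by 0.52, against 0.11 and 0.12 for the others. The difference was 0.25 (standard error 0.097, limma adjusted p = 0.665). Mvd, which makes isopentenyl pyrophosphate by decarboxylation, had a difference of -0.18 (standard error 0.083, limma adjusted p = 0.755). It measured 7.52, 7.31 and 7.38 in Ly-6C- cells and 7.53, 7.50 and 7.70 in Ly-6C+ cells. The difference was -0.12 without Ly-6C+ replicate 3. The overlap rested on 1 Ly-6C- array, replicate 1, and the neighbouring steps Pmvk and Mvd thus had means on opposite sides of 0.

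Mvk, mevalonate kinase, differed by -0.012, with a 95% interval from -0.17 to 0.14. Fdps, farnesyl pyrophosphate synthase, differed by -0.097 with a standard error of 0.087. Idi1, the isomerase of isopentenyl pyrophosphate, differed by 0.10 with a standard error of 0.13, and its sign rested on 1 array. Ly-6C- replicate 2 measured 7.17 for Idi1, while replicates 1 and 3 measured 6.59 and 6.76 and the Ly-6C+ arrays 6.69 to 6.79. Without that array the difference was -0.062, and the second probe set of Idi1 gave -0.033 with all arrays.

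In the squalene and sterol arm, 4 of 10 enzymes had higher and 6 lower means in Ly-6C- cells, with a median of -0.011. Fdft1, squalene synthase, which commits farnesyl units to sterol, followed Cyp51 in this arm. It measured 7.94, 7.86 and 8.08 in Ly-6C- replicates 1, 2 and 3 and 7.69, 7.90 and 7.72 in Ly-6C+ replicates 1, 2 and 3, so the second replicates were reversed. Its difference was 0.19 (standard error 0.085, limma adjusted p = 0.742), and its second probe set gave 0.16 with a standard error of 0.092. Sqle, squalene epoxidase and a known control point of the route, differed by 0.095 with a standard error of 0.086. The Sqle difference was positive in all 3 pairs, at 0.092, 0.12 and 0.075, while the arrays of the populations overlapped.

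Among the members, the enzymes nearest to Cyp51 in the route had differences nearer 0, which were not tested against that of Cyp51. Lss, which folds squalene epoxide into lanosterol just before Cyp51 acts, differed by -0.13 with a standard error of 0.12. Its lowest array was Ly-6C- replicate 2 at 5.80, and without it the difference was 0.015. Msmo1, the methyl sterol oxidase that acts after Cyp51, differed by -0.0039, with a 95% interval from -0.22 to 0.22. Nsdhl, the decarboxylating dehydrogenase of the same demethylation, differed by 0.028, and Hsd17b7, the ketoreductase that completes it, by -0.076. Hsd17b7 measured 7.23 to 7.29 in Ly-6C- cells and 7.31 to 7.36 in Ly-6C+ cells, a separation without overlap but of small size (limma adjusted p = 0.896).

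The last steps of the route, which move and reduce the ring double bonds, gave differences near 0. Ebp, the sterol isomerase, differed by -0.064 with a standard error of 0.10, Sc5d, the desaturase, by -0.032 with a standard error of 0.16, and Dhcr7, the final reductase, by -0.018 with a standard error of 0.068. Sc5d was the least precise member. It measured 8.24, 7.89 and 8.64 in Ly-6C- replicates 1, 2 and 3 and 8.24, 8.22 and 8.39 in Ly-6C+ cells, so the Ly-6C- arrays spanned the whole range. Without Ly-6C- replicate 2 the Sc5d difference was 0.15 and without Ly-6C- replicate 3 it was -0.22.

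**Figure D2:**
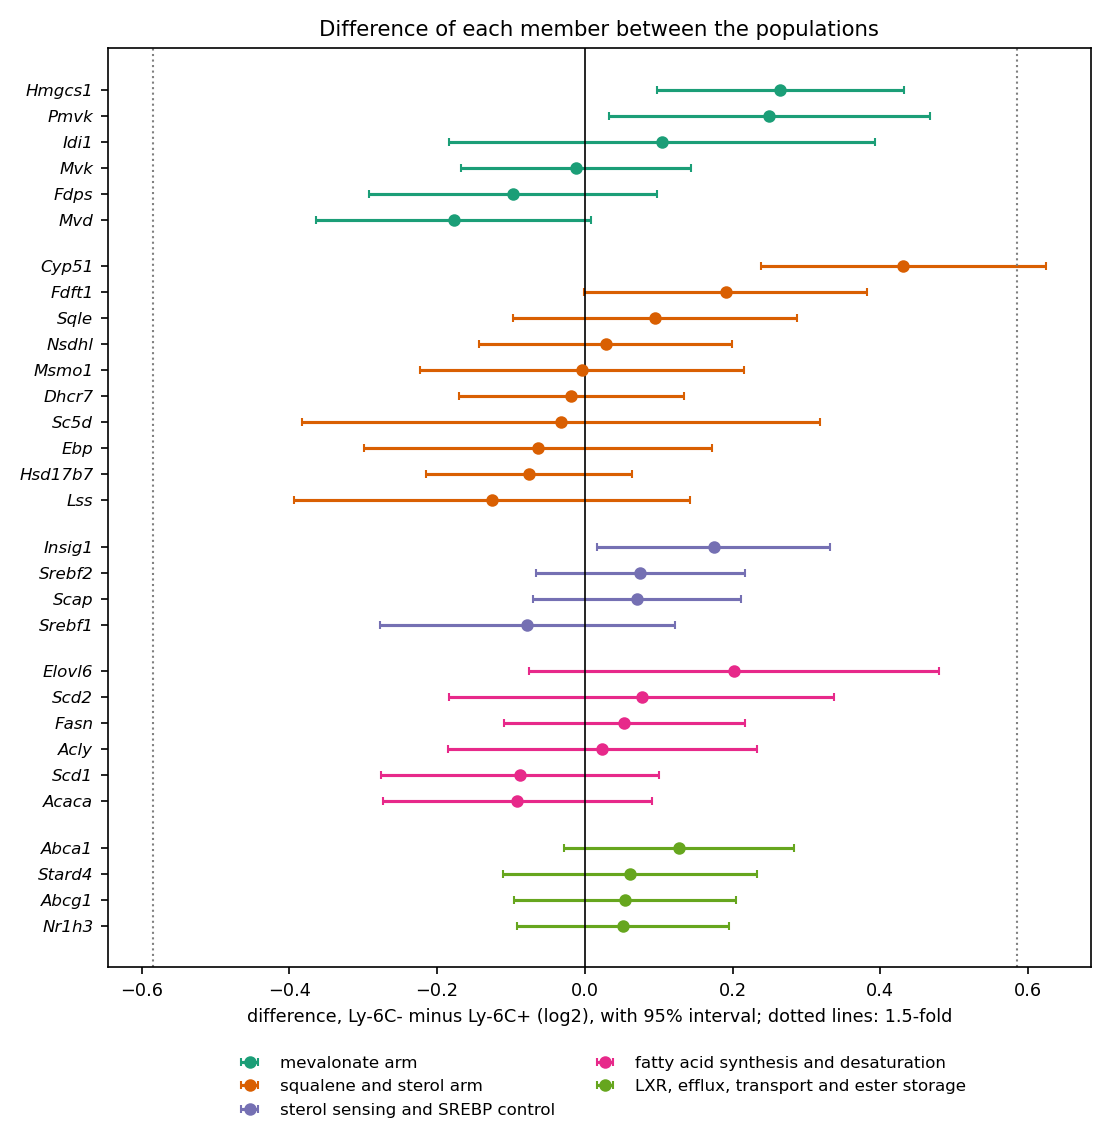
Difference of each of the 30 measured members on the log2 scale (horizontal axis, Ly-6C- minus Ly-6C+) with its 95% interval from the limma fit, coloured and ordered by role. Dotted lines mark a 1.5-fold change in either direction; the interval of Cyp51, from 0.24 to 0.62, is the one that crosses a line.

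The sterol sensing genes differed by -0.078 to 0.17, and none passed limma's test. Srebf2, the gene of the SREBP that mainly drives sterol synthesis, measured 8.45, 8.38 and 8.47 in Ly-6C- cells and 8.35, 8.35 and 8.37 in Ly-6C+ cells. The populations did not overlap, and the difference was 0.075 (standard error 0.063, limma adjusted p = 0.898). Scap, the escort protein, measured 8.48, 8.54 and 8.51 against 8.45, 8.41 and 8.46, a difference of 0.071 (standard error 0.062, limma adjusted p = 0.902). Srebf1, whose products drive fatty acid genes, differed by -0.078 with a standard error of 0.089, and its Ly-6C+ arrays ran from 7.17 to 7.47. With Insig1, 3 of these 4 genes had arrays that did not overlap, all with higher values in Ly-6C- cells, by 1.05-fold to 1.13-fold, where 6.12% of all genes were so placed. Transcript levels of Srebf1, Srebf2 and Scap do not show how much SREBP protein was cut and active.

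By the probe sets used, none of the 6 fatty acid genes reached an unadjusted limma p of 0.05, and none had arrays that did not overlap. Acly, which makes cytosolic acetyl-CoA from citrate, differed by 0.024 with a 95% interval from -0.18 to 0.23. Fasn, the synthase of palmitate, differed by 0.054 with an interval from -0.11 to 0.22. Elovl6, which lengthens palmitate, had the largest difference of the group at 0.20 (standard error 0.12, limma adjusted p = 0.842). It measured 8.03, 7.86 and 7.87 in Ly-6C- cells and 7.69, 7.47 and 8.01 in Ly-6C+ cells, so a single Ly-6C+ array, replicate 3, lay in the range of the other population. The difference was 0.35 without that array and 0.075, below the 0.18 of Scd2, without Ly-6C+ replicate 2.

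Acaca, acetyl-CoA carboxylase and the committing step of fatty acid synthesis, gave different signs by probe set. The brighter one differed by -0.092 with a standard error of 0.081 and the dimmer one by 0.18 (standard error 0.063, limma adjusted p = 0.659 over all probe sets), and which of them follows the gene better was not tested. Scd1 and Scd2, desaturases that make oleate-type acids, differed by -0.087 and 0.077. Scd1, at 4.27 to 4.53 on all arrays, was below the median gene, as were Lss and Nr1h3, and RMA compresses differences at low signal. Scd2 measured 7.18, 6.86 and 7.21 in Ly-6C- cells and 6.88, 7.21 and 6.93 in Ly-6C+ cells, so the second replicates ran opposite to the others.

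The LXR and cholesterol export genes had differences between 0.051 and 0.13, all 4 of them above 0, where 47.8% of all genes lay. Abca1, the pump that loads cholesterol onto apolipoprotein A-I, measured 7.29, 7.29 and 7.31 in Ly-6C- cells and 7.15, 7.27 and 7.09 in Ly-6C+ cells. The Ly-6C- arrays were nearly equal and lay just above the highest Ly-6C+ array, and the difference was 0.13 (standard error 0.070, limma adjusted p = 0.813). Abcg1, its partner for export to HDL, differed by 0.055 with a 95% interval from -0.095 to 0.20. Nr1h3, the gene of LXRα, differed by 0.051 and Stard4, a sterol carrier and known SREBP target, by 0.061. Without Ly-6C- replicate 1 the Stard4 difference was -0.0064. Abca1 is abundant in macrophages. Of 8 macrophage and monocyte markers none passed limma's test. An unadjusted limma p under 0.05 was seen for 1, Lyz2 at 0.25, or 12.5% against 6.71% of all genes. The mean log2 level of the 8 was 5.50 to 5.52 in Ly-6C- arrays and 5.43 to 5.53 in Ly-6C+ arrays.

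**Figure D3:**
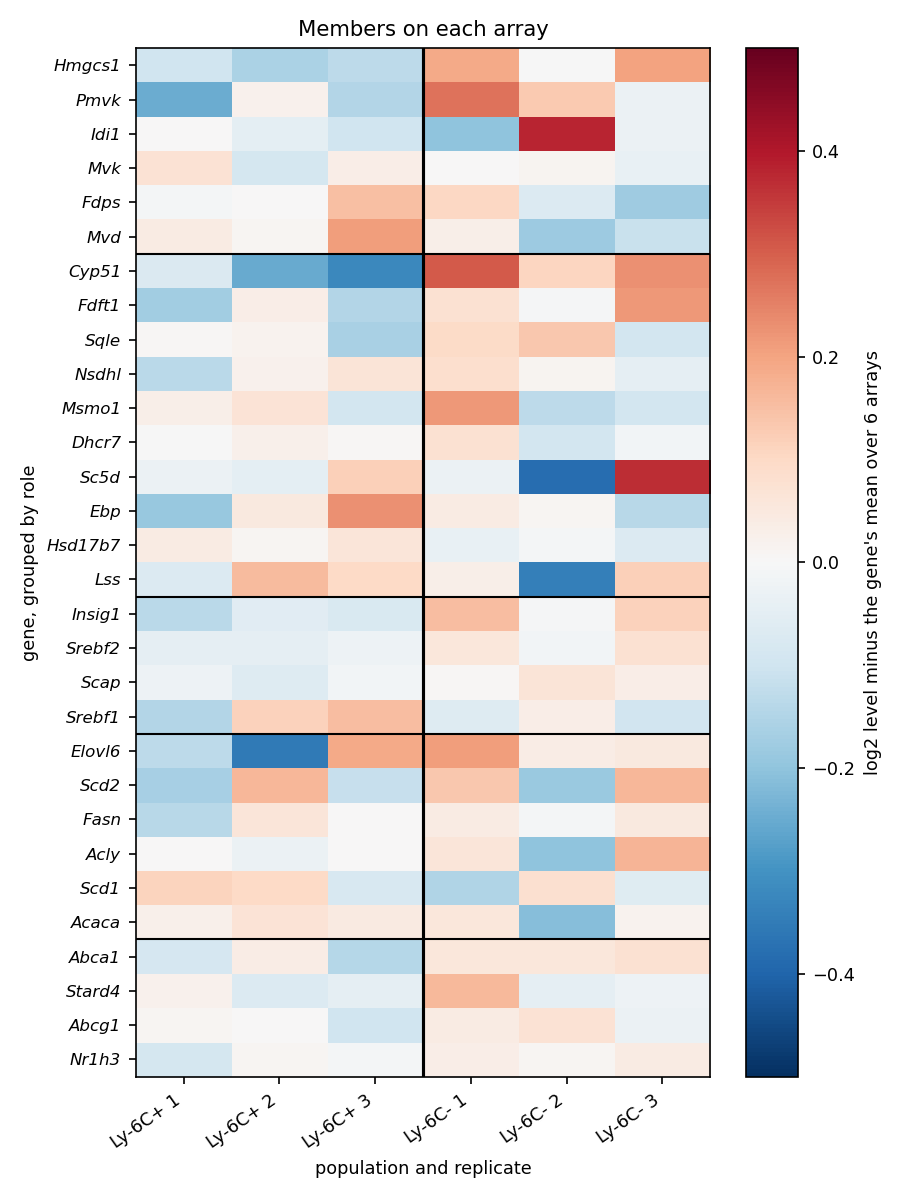
Log2 level of each of the 30 members on each array minus its mean over the 6 arrays (colour), with populations and replicates on the horizontal axis and genes ordered by role and difference on the vertical axis. Cyp51 and Hmgcs1 change colour at the line between populations, while Ly-6C- replicate 2 holds the high value of Idi1 and the low values of Sc5d and Lss.

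The mean over the members did not separate the populations. The mean of the 30 members was 7.54, 7.45 and 7.51 in Ly-6C- replicates 1, 2 and 3 and 7.42, 7.47 and 7.46 in Ly-6C+ replicates 1, 2 and 3, so the populations overlapped through Ly-6C- replicate 2. That array was the lowest of the 6 for 8 members, or 26.7%, and for 24.4% of all genes. It was the lowest or the highest for 12 members, or 40.0%, against 45.0% of all genes. All 3 same-numbered pairs were above 0 for 10 members, or 33.3%, where 13.3% of all genes were, and below 0 for 2 members, or 6.67%, where 14.8% were.

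**Figure D4:**
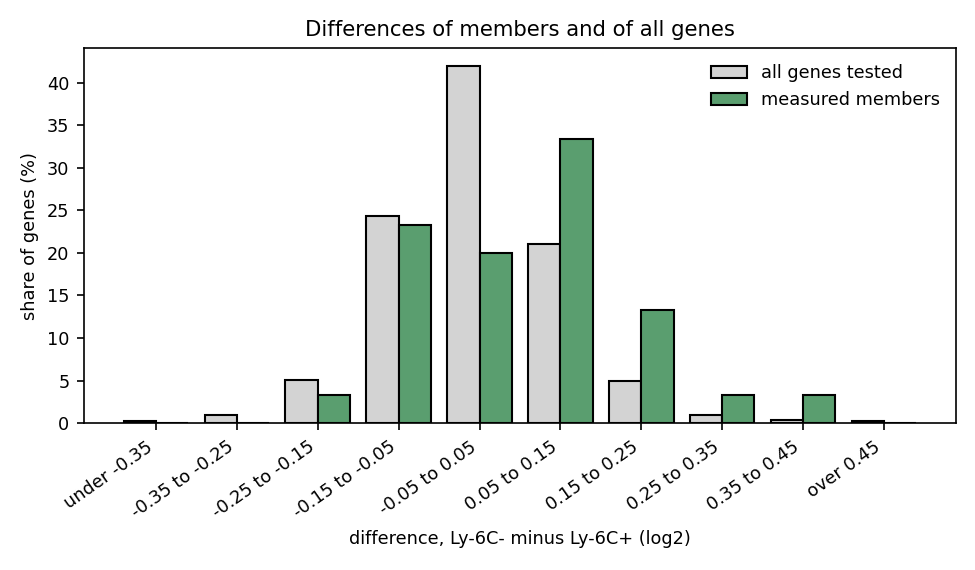
Share of genes in percent (vertical axis) by the difference between populations on the log2 scale (horizontal axis, Ly-6C- minus Ly-6C+), for the 30 members and for all 19938 genes. From 0.05 to 0.15 the bars stand at 33.3% of members and 21.0% of all genes, and no member lies under -0.25 or over 0.45.

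The precision of 3 arrays a population bounds most of these differences. The standard errors ran from 0.062 to 0.16, and the difference that would have matched the p of the last gene that passed was 0.41 at the lowest standard error, 0.55, or 1.47-fold, at the median and 1.04 at the highest. For 29 of the 30 members the 95% interval, not adjusted for the number of genes, lay within a 1.5-fold change in either direction. The same held for 19695 of all 19938 genes, and the exception among the members was Cyp51. Differences under these sizes could not have been called at this precision, and a total change of RNA shared by all genes is removed by the normalization.

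Of the other genes of the same pathways none passed limma's test, and more means lay below 0 than above. Of 41 measured genes from a list of 50, 14, or 34.1%, had higher means in Ly-6C- cells, against 47.8% of all genes. Lower means were seen for 27, and the median was -0.036. An unadjusted limma p under 0.05 was seen for 4 of the 41, or 9.76%, against 6.71% of all genes. The 5 measured genes listed as other sterol synthesis all had lower means. Acat1, Ggps1, Lbr, Tm7sf2 and Dhdds differed by -0.037, -0.091, -0.092, -0.11 and -0.22. Arrays did not overlap for Dhdds alone of these (limma adjusted p = 0.599). Dhdds is a prenyltransferase for dolichol, so this list reaches beyond the route to sterol. Arrays did not overlap for 7 of the 41, or 17.1%, against 12.6% of all genes. Acsl4, an acyl-CoA ligase that prefers arachidonate, differed by 0.21 and Elovl7, an elongase, by 0.14. Dhdds, Npc2, the lysosomal sterol carrier, Acacb, the mitochondrial carboxylase, Acss2, the acetate ligase, and Ch25h, the cholesterol hydroxylase, had differences of -0.22, -0.16, -0.11, -0.057 and -0.16. The limma adjusted p of these 7 genes lay between 0.599 and 0.919. Acacb and Ch25h were below the median gene, where RMA compresses differences.

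Markers of activated or cycling T cells were set beside the lipid genes. The mean log2 level of 7 such markers was 7.96 to 8.03 in Ly-6C- arrays and 7.83 to 7.88 in Ly-6C+ arrays, without overlap. None passed limma's test, and 3, or 42.9% against 6.71% of all genes, had an unadjusted limma p under 0.05. They were the topoisomerase gene Top2a at 0.49, the proliferation marker Mki67 at 0.36 and Cd44 at -0.25. The other markers had smaller differences, with Tfrc at 0.17, Il2ra and Myc at 0.12 and Cd69 at -0.024. For Mki67, which lay below the median gene, the arrays overlapped and the third replicates differed by -0.0041. The part of these markers in the values of Cyp51 and Hmgcs1 was not tested. In sorted populations measured in bulk, fewer cells of a type and less RNA per cell cannot be told apart. Of 4 regulatory T cell markers, Ctla4 and Ikzf2 passed limma's test, as 0.145% of all genes did, and were higher, while Foxp3 differed by 0.013. For 7 B cell markers the mean level was 5.28 to 5.39 in Ly-6C- and 5.31 to 5.34 in Ly-6C+ arrays, for 5 dendritic cell markers 5.40 to 5.50 and 5.45 to 5.55, for 5 NK cell markers 4.11 to 4.23 and 4.11 to 4.22, and for 6 stroma and endothelium markers 6.90 to 6.99 and 6.91 to 7.00. In these 4 lists no gene passed limma's test or had an unadjusted p under 0.05. The 8 measured T cell markers, Cd3e and Cd4 among them, lay between 11.07 and 11.27 in Ly-6C- and between 11.11 and 11.17 in Ly-6C+ arrays, all well above the mean level of the median gene, 6.37. None of the 8 passed limma's test, and 2, or 25% against 6.71% of all genes, had an unadjusted limma p under 0.05. They were Cd5 at 0.41 and Cd28 at 0.16, both with higher values in Ly-6C- cells and no overlap.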

How the data were processed

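The deposited table holds log2 expression of 28853 probe sets on 6 Affymetrix mouse arrays, and the values, from 2.47 to 13.6, were used as deposited. The tools named in the submitters' processing notes are RMA and Partek, without version or role. Per the labels' protocols, 50 ng of total RNA was amplified and 5 µg of cDNA was labelled with biotin. For the genome build of the probe sets: not given in the sources used here. Through the platform annotation 21789 probe sets had 1 symbol, 1621 several and 5443 were not listed, and 21698 were matched by Entrez ID. The brightest probe set per gene gave 19938 genes. The test was limma 3.58.1 run in R 4.3.3 (lmFit, eBayes, 2-sided, Benjamini-Hochberg over all genes, threshold adjusted p 0.05, no covariate, no filter). The fit was tried on simulated data with independent noise for each gene and array. Deviations shared across the genes of an array or pair were not simulated. The text names every member and, of the other pathway genes, those listed under sterol synthesis and those whose arrays do not overlap. Promoters were considered for the 6 members with the smallest p. Members and lists were chosen with earlier results of these data known. Same-numbered arrays deviated together across genes, with r of 0.129, 0.128 and 0.107, all above the bound of 0.1. The numbers were therefore read as pairs, which the labels do not state. The block was an alternative, as were other normalizations, filters, probe set rules, variance models, array weights, leaving out each array and an adjusted p of 0.1. The number of arrays limits precision. Plots used matplotlib 3.10.9 and Python 3.11.15.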

Additional observations from a re-analysis of the deposited data

How the results depend on the processing

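All 15 alternatives were planned, and none of the 30 members or the 41 other pathway genes passed under any of them. Over all genes the count of 29 was 45 with every probe set as its own feature and 54 with array weights, and ran from 5 to 47 when an array was left out. The cause was not tested. With the replicate number as a block, 41 genes and 0 members passed, and the block changed no member's call. The member median was between 0.035 and 0.074 under the other settings and between 0.015 and 0.058 with an array left out, 0.015 without Ly-6C- replicate 1 and 0.022 without Ly-6C+ replicate 1. Cyp51 ran from 0.38 to 0.50, with limma adjusted p from 0.0617 (array weights) to 0.691, and Hmgcs1 from 0.23 to 0.33, with limma adjusted p from 0.160 to 0.959. The sign of 18 members was the same under every alternative, and 12 changed it under at least 1, among them Idi1, Lss, Sc5d and Acaca. Subtracting array medians shifted all genes by a median of 0.021 and a second quantile normalization by 0.0080. Lss, Scd1 and Nr1h3 were not tested without dim genes.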
